A study of Mus musculus with 6 samples.

Results

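The 35 genes described here encode the enzymes and transporters of glycolysis and a set of genes of the hypoxia response, chosen by symbol from a table of 33682 genes measured by RNA sequencing in cultured neonatal rat heart cells. A total of 22 are glycolytic enzymes, their regulators and the glucose and lactate transporters, and 13 are other hypoxia response genes, the pyruvate dehydrogenase kinases included. All 35 symbols were found, each on a single row. The cells were kept in conditioned medium, the supernatant of another culture, taken from bone marrow-derived mast cells (BMMCs) that had been treated with TNF-alpha. The labels name mouse as the organism, but nearly all rows carry rat gene identifiers. In 3 samples the BMMCs were ALOX5-/- (Alox5KO medium) and in 3 they were WT (WT medium). Alox5 encodes 5-lipoxygenase, the first enzyme of leukotriene synthesis. The labels give WT as the genotype of the sequenced cells in all 6 samples, so the deletion was in the cells that made the medium, and no sequenced gene checks it. Both groups share the TNF-alpha treatment of the mast cells, and cells without mast cell medium were not analysed here.

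Glycolysis splits glucose into pyruvate in the cytosol, and lactate dehydrogenase turns pyruvate into lactate when it does not enter the mitochondria. The hypoxia-inducible factors (HIF) are transcription factors whose alpha subunit is hydroxylated by oxygen-dependent prolyl hydroxylases and then destroyed. When oxygen is low, the alpha subunit is spared, and HIF raises the transcription of most glycolytic genes and of genes for cell survival, blood vessel tone and feedback on HIF itself. Inflammatory signals are also known to raise HIF and glycolytic genes at normal oxygen, and activated fibroblasts are known for high glycolysis. The comparison addresses which heart cell transcripts depend on Alox5 in the mast cells that conditioned the medium. Oxygen, glucose, lactate and leukotrienes in the cultures were not measured here.

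Reads assigned to genes, as recovered from the deposited values, numbered 14955850 to 15766187 with Alox5KO medium and 13284088 to 14389010 with WT medium. The sample labels call the cells cardiomyocytes while the design text names cardiac fibroblasts, and fibroblast markers were abundant and cardiomyocyte markers scarce. Markers counted as rising or falling with Alox5KO medium had a Benjamini-Hochberg adjusted p under 0.05 (limma). Of all 12341 tested genes, 10% rose and 10.6% fell by this rule. The 12 fibroblast markers summed to between 11412 and 13290.3 FPKM (fragments scaled to gene length and to library size) with Alox5KO medium and between 11199 and 11787 with WT medium. Their sums were carried by a few abundant genes, and of the 12, 3 rose (Col3a1, Vim and Tcf21) and 3 fell (Dcn, Lum and Pdgfra, with log2 fold changes of -4.10, -2.10 and -1.09). Their median lay between 263 and 361 FPKM with Alox5KO medium and between 458 and 643 with WT medium. The 11 cardiomyocyte markers in the table summed to between 91.3 and 114 FPKM with Alox5KO medium and between 27.9 and 50.8 with WT medium, with Myl2 listed at 0 in all 6 libraries. Most of each sum came from Tnnt2, which averaged 79.9 FPKM with Alox5KO medium and 23.0 with WT medium. Of the 11, 5 averaged below 1 FPKM, and of the 6 tested 3 rose. The 8 proliferation markers summed to between 254 and 308 FPKM with Alox5KO medium and between 388 and 434 with WT medium, and 5 of the 8 fell. Of 9 mast cell markers, 4 were listed at 0 in every library, and the list summed to between 22.3 and 32.3 FPKM with Alox5KO medium and between 43.4 and 61.4 with WT medium, most of it from Cpa3. The sum of 9 smooth muscle and pericyte markers lay between 4903 and 6713 FPKM with Alox5KO medium and between 1059 and 1125 with WT medium. Most of each sum came from Acta2 and Tagln. The median of this list lay between 7.57 and 11.3 FPKM with Alox5KO medium and between 8.92 and 10.3 with WT medium. Of its 8 tested genes 6 rose and 1 fell (Kcnj8, log2 fold change -1.83). Sums of the endothelial, leukocyte and red cell lists reached at most 21.3 FPKM in every library. The part of any of these shifts in the results below was not tested. In bulk libraries fewer cells of a type and less RNA per cell cannot be told apart.

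Most of the glycolysis and hypoxia genes were lower in cells given Alox5KO medium, and none of those tested was called higher. Of the 34 members that passed the abundance filter, a mean of at least 1 FPKM, 23 fell and 0 rose at a Benjamini-Hochberg adjusted p under 0.05 (limma), against 10.6% of all 12341 tested genes that fell and 10% that rose. Among the glycolytic enzymes and transporters 14 of 22 fell, and among the hypoxia response genes 9 of 12 tested fell. The members were chosen with earlier results of these data known. The median log2 fold change was -0.60 for the 22 glycolytic genes and -0.62 for the 12 hypoxia genes, beside -0.00082 for all tested genes. A fall of at least 1 log2 unit was seen for 6 members, namely Slc2a1, Slc16a3, Pkm, Bnip3, Ndrg1 and Egln3, and for 3.31% of all tested genes. In 27 of the 35 members the highest Alox5KO-medium value lay below the lowest WT-medium value, a pattern seen in 18.8% of all tested genes. With the opposite pattern there were 0 members, against 18.8% of all tested genes. At an unadjusted p under 0.05, 0 members were higher, and no alternative analysis called any member higher. The summed FPKM of the 22 glycolytic genes was 7069, 7602 and 7655 with Alox5KO medium and 12431, 11979 and 9863 with WT medium. These sums were 1.26%, 1.46% and 1.41% of all FPKM with Alox5KO medium and 2.15%, 2.06% and 1.85% with WT medium. The 13 hypoxia response genes summed to 441, 468 and 407 FPKM with Alox5KO medium and 839, 764 and 659 with WT medium. In both groups of genes the 3 Alox5KO-medium sums all lay below the 3 WT-medium sums. WT-medium replicate 3 was the lowest of the 3 WT-medium samples in 28 of 35 members. Without it 22 members fell, 21 of them among the 23. The labels do not say that replicates came from separate cultures, so p-values reflect only how far these samples spread, part of which may be technical.

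**Figure D1:**
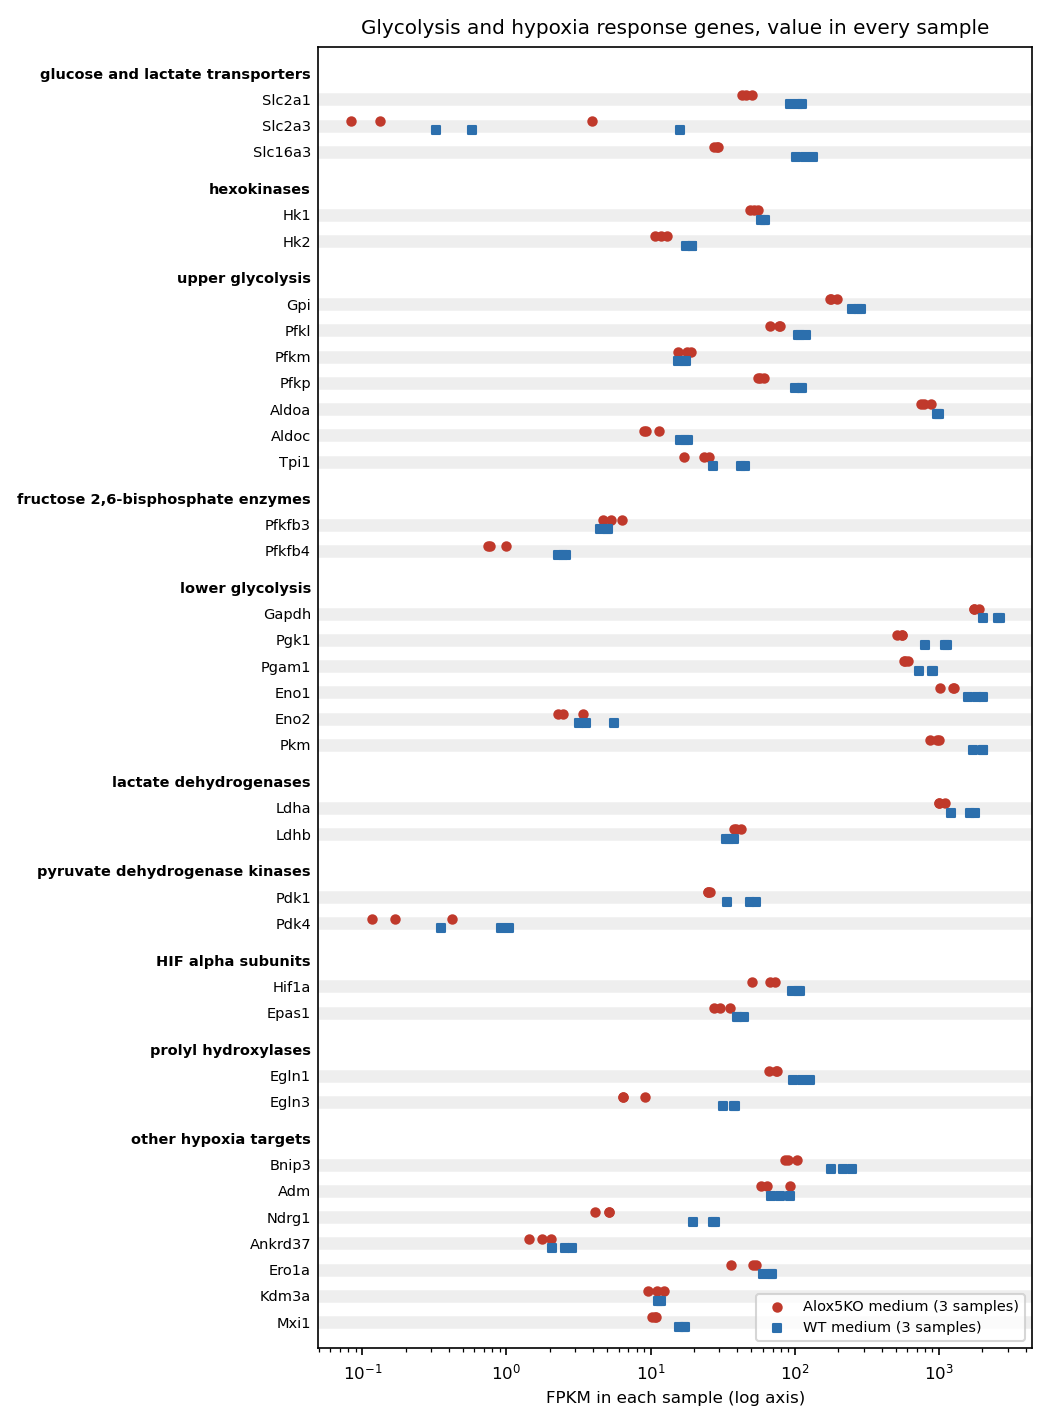
FPKM of each of the 35 members in every sample on a log axis, grouped by role, with the 3 Alox5KO-medium samples as red circles above the 3 WT-medium samples as blue squares. In 27 members all red circles lie left of all blue squares, with the widest gaps at Slc16a3, Egln3 and Ndrg1, and Gapdh is the most abundant member in both groups.

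The main transporters at either end of the pathway both fell, and a further glucose importer did not pass. Slc16a3 encodes the monocarboxylate carrier that exports lactate from glycolytic cells. It had 29.1, 28.9 and 27.6 FPKM with Alox5KO medium, against 133, 118 and 102 with WT medium. The groups were far apart, and the Alox5KO-medium samples were closely alike. The log2 fold change was -1.998 (SE 0.11; limma, adjusted p = 5.7e-06), and the mean with Alox5KO medium was 0.243 of that with WT medium. The gene (ENSRNOG00000036677) lies on chromosome 10 from 110138586 to 110148358 on the plus strand, in the coordinates of the table, for which no source names the rat build. Slc2a1, the glucose importer of most cultured cells, had 43.2, 50.1 and 45.8 FPKM with Alox5KO medium and 111, 106 and 91.8 FPKM with WT medium. Its groups did not overlap either, and it fell by 1.13 on the log2 scale (SE 0.11; limma, adjusted p = 0.00012). Slc2a1 (ENSRNOG00000007284) lies on chromosome 5 from 138154673 to 138182897.

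Slc2a3, the glucose importer best known from neurons and leukocytes, was uneven within both groups. It had 3, 2 and 88 reads, or 0.133, 0.0833 and 3.92 FPKM, with Alox5KO medium, and 12, 311 and 7 reads, or 0.575, 15.95 and 0.327 FPKM, with WT medium. A single library in each group held most of the reads. The log2 fold change of -0.85 did not pass the test (95% interval -4.26 to 2.56), and without WT-medium replicate 2 it was 0.33. LOC100909595, a row with the same Swiss-Prot entry, had 0.702, 0.125 and 0.134 FPKM with Alox5KO medium and 0.252, 0.135 and 1.21 with WT medium.

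Hexokinase traps glucose as its phosphate, and its inducible form fell. Hk2 had 10.7, 12.9 and 11.7 FPKM with Alox5KO medium and 19.4, 19.3 and 17.5 FPKM with WT medium, a log2 fold change of -0.62 (SE 0.11; limma, adjusted p = 0.0030). Hk1, the form found in most tissues, was the more abundant hexokinase in every library. Its values were 49.2, 52.2 and 55.1 FPKM with Alox5KO medium and 62.2, 58.5 and 61.2 with WT medium. The groups of Hk1 did not overlap, but the log2 fold change of -0.21 did not pass the adjusted threshold (95% interval -0.42 to -0.01).

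In the upper part of glycolysis, which spends ATP to make triose phosphates, 5 of 7 genes fell. Gpi, which turns glucose phosphate into fructose phosphate, averaged 183 ± 11.02 FPKM with Alox5KO medium and 269 ± 20.5 with WT medium (SD, n = 3 each) and fell by 0.55 on the log2 scale (limma, adjusted p = 0.0049). Phosphofructokinase, the committed step of glycolysis, has a liver, a muscle and a platelet form. The platelet form Pfkp had 56.9, 60.8 and 55.4 FPKM with Alox5KO medium and 111, 112 and 101 with WT medium. It fell by 0.89 (SE 0.09; limma, adjusted p = 2e-04), the largest fall of the 3 forms. The liver form Pfkl had 67.5, 77.7 and 79.2 FPKM with Alox5KO medium and 119, 109 and 105 with WT medium, and fell by 0.57 (limma, adjusted p = 0.0042). The muscle form Pfkm had 17.9, 15.5 and 19.0 FPKM with Alox5KO medium and 17.1, 15.6 and 17.6 with WT medium. Its groups overlapped, and its log2 fold change of 0.05 had a 95% interval from -0.19 to 0.30.

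Aldolase splits the sugar bisphosphate into trioses. Aldoa, by far its main form here, had 781, 748 and 883 FPKM with Alox5KO medium and 988, 997 and 966 with WT medium. These groups did not overlap, but the log2 fold change of -0.29 (standard error 0.11) missed the threshold (limma, adjusted p = 0.087). The brain form Aldoc, at 9.90 ± 1.33 FPKM with Alox5KO medium and 17.2 ± 1.21 with WT medium (SD, n = 3 each), fell by 0.74 (limma, adjusted p = 0.0021). Triose phosphate isomerase, Tpi1, had 25.3, 23.5 and 17.0 FPKM with Alox5KO medium and 42.3, 45.0 and 27.3 with WT medium, and fell by 0.76 (limma, adjusted p = 0.049). This call was fragile. It was lost without Alox5KO-medium replicates 1, 2 or 3, at adjusted p of 0.072, 0.094 and 0.12, and without WT-medium replicates 1 or 2, at 0.15 and 0.14 (limma). LOC100911515, a row with the same Swiss-Prot entry, was more abundant than Tpi1 itself in every library, with 51.5, 111 and 86.8 FPKM with Alox5KO medium and 137, 105 and 64.9 FPKM with WT medium. Summed with its 3 copies, Tpi1 had 121 ± 49.8 FPKM with Alox5KO medium and 187 ± 80.2 with WT medium (SD, n = 3 each; limma, adjusted p = 0.47).

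The bifunctional enzymes that set the level of the sugar bisphosphate activating phosphofructokinase gave 1 call among both genes. Pfkfb4, a form induced by hypoxia, had 0.772, 0.994 and 0.742 FPKM with Alox5KO medium and 2.29, 2.45 and 2.57 with WT medium. Its log2 fold change was -0.91 (SE 0.15; limma, adjusted p = 0.0029), and -1.45 with a pseudocount of 0.1 in place of 1 and -1.51 with limma-voom on recovered reads. The table holds another row with the Swiss-Prot entry of Pfkfb4, LOC100911725, which had 0.748, 1.02 and 1.04 FPKM with Alox5KO medium and 0.248, 0.265 and 0.181 with WT medium. That row was higher in every Alox5KO-medium sample. Summed with that row, Pfkfb4 missed the threshold at a log2 fold change of -0.41 (limma, adjusted p = 0.075). Pfkfb3, the form with the strongest activating bias, had 4.69, 6.32 and 5.31 FPKM with Alox5KO medium and 5.00, 5.04 and 4.43 with WT medium. Its groups overlapped and its log2 fold change was 0.14 (95% interval -0.16 to 0.44).

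Lower glycolysis, which yields ATP and pyruvate, held the most abundant members, and 4 of its 6 genes fell. Pkm, pyruvate kinase, had 867, 1005 and 964 FPKM with Alox5KO medium and 2029, 2020 and 1720 FPKM with WT medium. The mean with Alox5KO medium was 0.492 of that with WT medium, a log2 fold change of -1.02 (SE 0.12; limma, adjusted p = 0.00038). Pkm (ENSRNOG00000011329) lies on chromosome 8 from 64481172 to 64502722, and the table does not separate its splice forms. Pgk1, the kinase that makes the pathway's first ATP, had 557, 556 and 513 FPKM with Alox5KO medium and 1130, 1100 and 802 with WT medium. It fell by 0.88 (SE 0.14; limma, adjusted p = 0.0025).

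Eno1, the main enolase, had 1015, 1262 and 1250 FPKM with Alox5KO medium and 2017, 1841 and 1592 with WT medium, and fell by 0.63 (limma, adjusted p = 0.011). The phosphoglycerate mutase gene Pgam1 had 567, 613 and 581 FPKM with Alox5KO medium and 903, 890 and 727 with WT medium, and fell by 0.51 (limma, adjusted p = 0.014), or by 0.32 under quantile normalization. Both calls depended on single samples. Without WT-medium replicate 1 the adjusted p was 0.059 for Eno1 and 0.080 for Pgam1, and for Pgam1 it was 0.063 without WT-medium replicate 2 and 0.055 without Alox5KO-medium replicate 3 (limma). The neuronal enolase Eno2 was rare, at 2.72 ± 0.612 FPKM with Alox5KO medium and 4.10 ± 1.29 with WT medium (SD, n = 3 each), and its log2 fold change of -0.44 did not pass (95% interval -0.89 to 0.01). Summed with the row that carries its Swiss-Prot entry, it fell by 0.61 (limma, adjusted p = 0.023).

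Gapdh, the dehydrogenase that is widely used to normalise transcript levels, was the most abundant member. It had 1746, 1757 and 1898 FPKM with Alox5KO medium and 2627, 2562 and 2020 with WT medium. The groups did not overlap, and the mean with Alox5KO medium was 0.749 of that with WT medium. The log2 fold change of -0.41 (standard error 0.13) did not pass (limma, adjusted p = 0.058), but without WT-medium replicate 3 it was -0.53 and passed (limma, adjusted p = 0.0058). It also passed under quantile normalization, TPM scaling and limma-voom, at adjusted p of 0.014, 0.036 and 0.035.

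At the branch point of pyruvate, Ldha and Pdk1 fell and Ldhb did not pass. Ldha, the lactate-forming dehydrogenase subunit, had 1004, 1102 and 995 FPKM with Alox5KO medium and 1773, 1628 and 1204 with WT medium. It fell by 0.55 (SE 0.15; limma, adjusted p = 0.032). The Ldha call was lost without Alox5KO-medium replicates 1, 2 or 3, at adjusted p of 0.088, 0.054 and 0.11, without WT-medium replicates 1 or 2, at 0.14 and 0.11, and without the abundance filter, at 0.069 (limma). Ldhb, the heart-type subunit that favours lactate use, had 39.0, 37.7 and 42.5 FPKM with Alox5KO medium and 33.5, 37.8 and 35.01 with WT medium. Its log2 fold change was 0.16 (95% interval -0.06 to 0.38), and the groups overlapped. Pdk1, a kinase that inhibits pyruvate dehydrogenase, had 25.9, 25.0 and 24.9 FPKM with Alox5KO medium and 53.7, 48.6 and 34.0 with WT medium. It fell by 0.80 (SE 0.16; limma, adjusted p = 0.0069). Pdk4, a kinase of the same family that is known from fasting, was the single member below the abundance filter. It had 10, 3 and 4 reads, or 0.419, 0.118 and 0.168 FPKM, with Alox5KO medium, and 23, 19 and 8 reads, or 1.04, 0.918 and 0.352 FPKM, with WT medium. Tested without the filter, its log2 fold change was -0.50 (limma, adjusted p = 0.15).

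**Figure D2:**
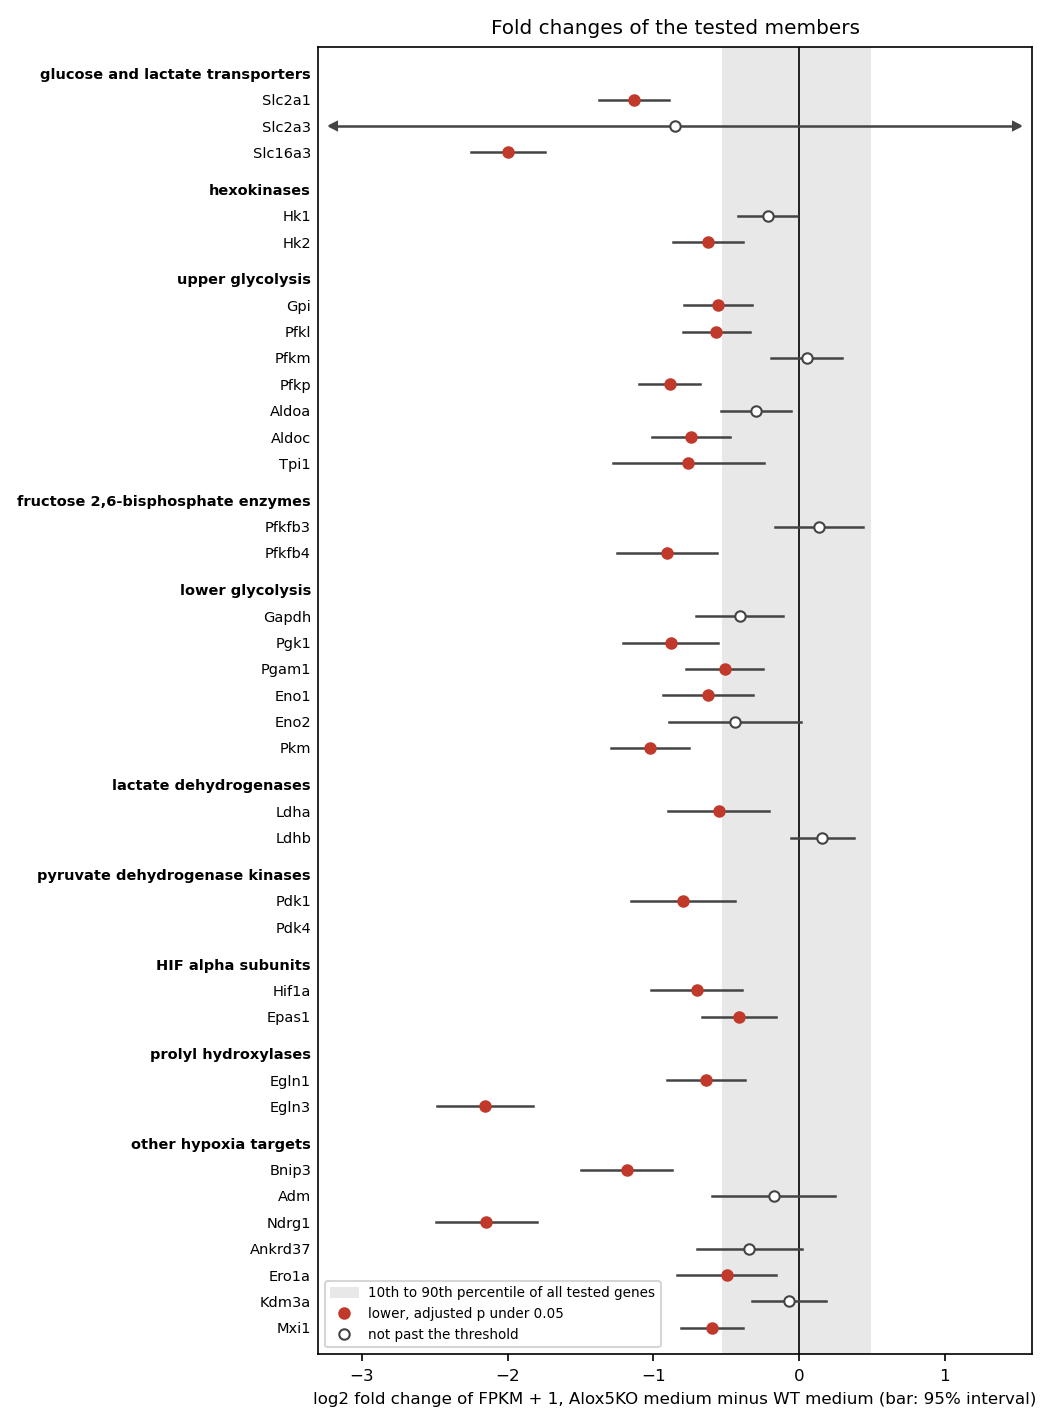
Log2 fold change of FPKM + 1, Alox5KO medium minus WT medium, with its 95% interval for the 34 tested members, filled red where the adjusted p is under 0.05. The grey band spans the 10th to 90th percentile of all tested genes, -0.52 to 0.49, and the interval of Slc2a3 runs past both ends of the axis.

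Both HIF alpha subunits fell at the transcript level. Hif1a had 72.9, 67.4 and 50.6 FPKM with Alox5KO medium and 108, 105 and 96.1 with WT medium, with no overlap. Its log2 fold change was -0.70 (SE 0.14; limma, adjusted p = 0.0067). Hif1a (ENSRNOG00000008292) lies on chromosome 6 from 96810907 to 96856052. Epas1, which encodes the other main alpha subunit, had 27.4, 30.2 and 35.2 FPKM with Alox5KO medium and 39.4, 40.4 and 44.3 with WT medium, and fell by 0.41 (limma, adjusted p = 0.030). The Epas1 call was lost without Alox5KO-medium replicates 1 or 2, at adjusted p of 0.092 and 0.071, and without WT-medium replicates 1, 2 or 3, at 0.072, 0.073 and 0.076. It was also lost without the abundance filter and with TPM scaling, at 0.060 and 0.090 (limma). HIF alpha is controlled mainly as a protein, which these libraries do not show.

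The prolyl hydroxylases, which mark HIF alpha for destruction and are themselves HIF targets, both fell. Egln3 had 6.39, 9.20 and 6.42 FPKM with Alox5KO medium and 38.2, 37.7 and 31.7 with WT medium. Its mean with Alox5KO medium was 0.205 of that with WT medium, a log2 fold change of -2.16 (SE 0.15; limma, adjusted p = 1.7e-05). Egln3 (ENSRNOG00000005053) lies on chromosome 6 from 75050329 to 75075795 on the minus strand. Egln1, the main oxygen sensor of most cells, had 66.3, 73.8 and 74.6 FPKM with Alox5KO medium and 128, 112 and 97.3 with WT medium, and fell by 0.64 (limma, adjusted p = 0.0049). The table gives Egln1 a length of 669 bases, which scales its level but not its fold change.

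Among the other hypoxia targets, 4 of 7 fell. Ndrg1, a stress-induced gene long used as a hypoxia marker, had 5.15, 5.16 and 4.11 FPKM with Alox5KO medium and 27.3, 28.0 and 19.5 with WT medium. The mean with Alox5KO medium was 0.193 of that with WT medium, and the log2 fold change was -2.15 (SE 0.15; limma, adjusted p = 2.2e-05). Ndrg1 (ENSRNOG00000007393) lies on chromosome 7 from 107734323 to 107775714 on the minus strand. Bnip3, which targets mitochondria for autophagy, had 104, 85.8 and 89.4 FPKM with Alox5KO medium and 250, 214 and 177 with WT medium, and fell by 1.18 (SE 0.14; limma, adjusted p = 0.00041). AABR07067600.1, a row with its Swiss-Prot entry, had 13.7, 11.9 and 11.3 FPKM with Alox5KO medium and 51.2, 38.9 and 29.3 with WT medium, and summed with it Bnip3 fell by 1.25.

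Mxi1, an antagonist of MYC, had 10.9, 10.8 and 10.2 FPKM with Alox5KO medium and 17.2, 16.9 and 15.8 with WT medium, and fell by 0.60 (limma, adjusted p = 0.0020). Ero1a, an oxidase of protein folding in the endoplasmic reticulum, had 51.1, 54.0 and 36.2 FPKM with Alox5KO medium and 69.6, 68.6 and 60.0 with WT medium, and fell by 0.50 (limma, adjusted p = 0.047). The Ero1a call held without Alox5KO-medium replicate 2. It was lost without Alox5KO-medium replicates 1 or 3, at adjusted p of 0.067 and 0.094, the log2 fold change being -0.32 without replicate 3, and without WT-medium replicates 1, 2 or 3, at 0.15, 0.13 and 0.053. It was also lost without the filter, with quantile normalization, with TPM scaling and with a prior that was not robust, at 0.10, 0.083, 0.075 and 0.057 (limma).

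Hypoxia targets that did not pass were Adm, Ankrd37 and Kdm3a. Adm, the vasodilator peptide adrenomedullin, had 58.1, 92.2 and 64.2 FPKM with Alox5KO medium and 92.1, 78.6 and 68.5 with WT medium. Its groups overlapped, and its log2 fold change was -0.17 (95% interval -0.60 to 0.25). The histone demethylase gene Kdm3a stayed between 9.63 and 12.3 FPKM with Alox5KO medium and between 11.3 and 11.8 with WT medium, a log2 fold change of -0.07 (95% interval -0.33 to 0.18). Ankrd37 had 1.75 ± 0.301 FPKM with Alox5KO medium and 2.48 ± 0.397 with WT medium (SD, n = 3 each), a log2 fold change of -0.34 (95% interval -0.70 to 0.02) from 71 and 90 reads in all.

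HIF binds DNA at a core of 5 letters, ACGTG being a common form, and its matches near the start sites of members that fell are shown to place them. The sequences come from the mouse promoters of RefSeq, build GRCm38.p6, since rat sequence was not used here, and genes were matched by symbol. Slc2a3, Gpi, Ndrg1 and Epas1 found no promoter by symbol and were not searched, so their absence below says nothing of their letters. Windows run from 250 bases before to 50 after a start site. Matches on either strand were found in the promoters of 20 of 31 matched members, or 64.5%. Of all 27025 genes in the mouse promoter set, expressed here or not, 21.8% held a match. Counted by promoter, a match was found in 50% of 48 member promoters and in 19.6% of all 32851. The members were chosen as glycolysis and hypoxia response genes, so a higher share among them was likely from the start and is no test. Among members that fell, 14 of 20 matched genes held the letters, and among the other members 6 of 11. Another form of the core, GCGTG, was not counted in these shares. Promoters without ACGTG may hold it, as did those of Pfkp, which fell, and Adm, which did not pass. A match is a description of the letters and not of binding. The stretches below are those of the 7 members with the smallest p that fell and that had a match upstream of a start site, with 20 bases on either side, or up to the start site where that is nearer, as for Slc16a3. Capitals mark ACGTG or its reverse complement, each stretch runs 5′ to 3′ along the gene, and an overlap of both strands gives 6 capitals. That of Slc16a3 lies at chr11:120949020-120949066 on the plus strand, with its last match starting 14 bases before the start site. The Egln3 stretch is chr12:54204079-54204123 on the minus strand, and the Slc2a1 stretch is chr4:119108689-119108733 on the plus strand. Those of Pkm, chr9:59657132-59657176, Mxi1, chr19:53329327-53329371, and Pgk1, chrX:106186930-106186993, are on the plus strand, and that of Bnip3, chr7:138909589-138909634, is on the minus strand.
Slc16a3: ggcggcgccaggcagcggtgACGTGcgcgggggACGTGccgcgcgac
Egln3: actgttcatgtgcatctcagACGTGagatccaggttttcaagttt
Slc2a1: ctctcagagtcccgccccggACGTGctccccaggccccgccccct
Pkm: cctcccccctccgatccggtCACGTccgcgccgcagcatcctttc
Bnip3: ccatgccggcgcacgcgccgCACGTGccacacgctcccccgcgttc
Mxi1: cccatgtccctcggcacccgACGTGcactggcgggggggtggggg
Pgk1: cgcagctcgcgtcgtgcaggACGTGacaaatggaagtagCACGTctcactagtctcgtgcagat

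Within enzyme families, 7 of 12 isozyme shares had groups that did not overlap, though none passed the adjusted test. For single genes, 18.8% of all tested had no overlap with Alox5KO medium lower and 18.8% with it higher. No such background was computed for shares. The 3 phosphofructokinase shares are parts of the same sum and so are not separate results. FPKM is scaled to gene length as the table gives it, so the level of a share depends on those lengths, and that of Egln3 rests on the 669 bases given for Egln1. Egln3 made up 8.79%, 11.1% and 7.93% of the FPKM of Egln1 and Egln3 together with Alox5KO medium, against 23.0%, 25.2% and 24.6% with WT medium. Pfkfb4 made up 13.3% ± 0.960 of the FPKM of Pfkfb3 and Pfkfb4 with Alox5KO medium and 33.6% ± 2.76 with WT medium (SD, n = 3 each). Both shares were lower with Alox5KO medium in every sample. With LOC100911725 added to Pfkfb4, its share was 24.6% ± 0.468 with Alox5KO medium and 35.7% ± 2.38 with WT medium (SD, n = 3 each), a difference of -11.1 percentage points in place of -20.3. The share of Pfkp in phosphofructokinase was 38.5% ± 2.12 with Alox5KO medium and 45.7% ± 1.35 with WT medium, while that of Pfkm was 11.7% ± 1.41 with Alox5KO medium and 7.13% ± 0.671 with WT medium (SD, n = 3 each). Hk2 made up 18.4% ± 1.24 of hexokinase FPKM with Alox5KO medium and 23.6% ± 1.34 with WT medium. Ldhb made up 3.72% ± 0.398 of Ldha and Ldhb with Alox5KO medium and 2.32% ± 0.487 with WT medium (SD, n = 3 each). In these 6 shares and in that of Aldoc the groups did not overlap, at an exact permutation p of 0.10, two-sided, which is the smallest that 3 against 3 samples allow. After Benjamini-Hochberg adjustment over the 12 shares the exact permutation p was 0.17 for these 7. The share of Epas1 in Hif1a and Epas1 was 33.1% ± 7.11 with Alox5KO medium and 28.7% ± 2.56 with WT medium, with overlapping groups (exact permutation p = 0.60).

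**Figure D3:**
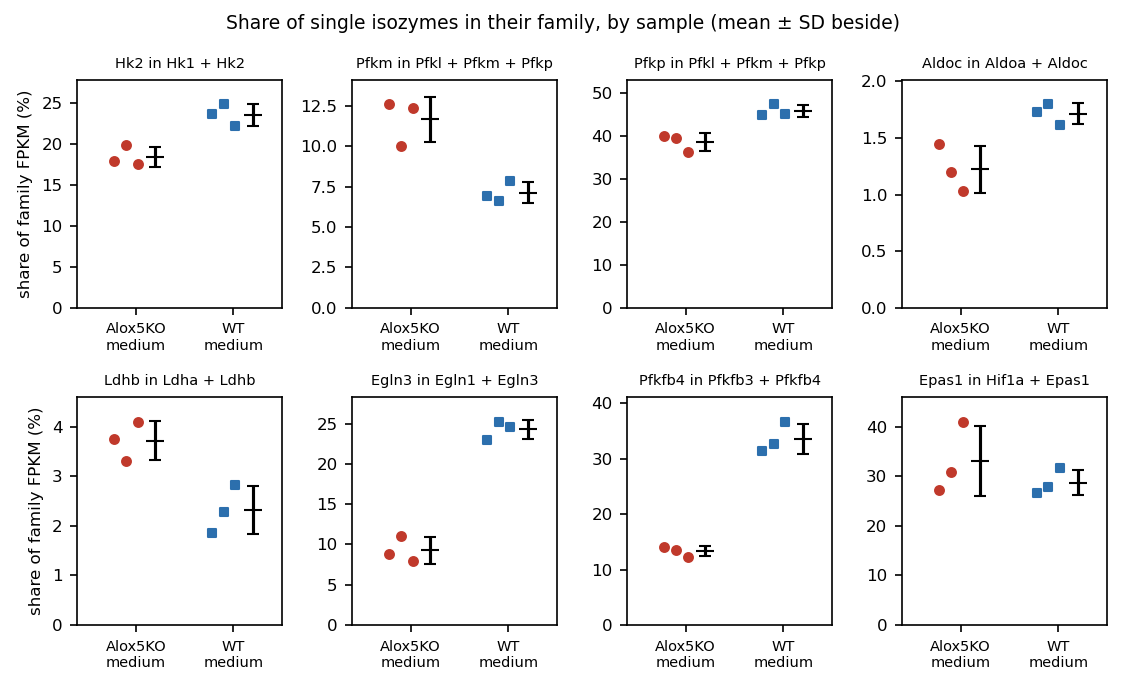
Share of 8 genes in the summed FPKM of their family, in percent, for the 3 Alox5KO-medium samples (red circles) and the 3 WT-medium samples (blue squares), with mean ± SD beside the points and axes that start at 0. Shares of Hk2, Pfkp, Aldoc, Egln3 and Pfkfb4 are lower and those of Pfkm and Ldhb higher in every Alox5KO-medium sample, and those of Epas1 overlap.

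Other genes of the same pathways did not all follow. Of 25 tested genes of glycolysis and pyruvate entry outside the members, such as the mitochondrial pyruvate carriers and the pyruvate dehydrogenase subunits, 1 fell and the other 24 did not pass, with a median log2 fold change of -0.05. The gene that fell was Slc16a1, another monocarboxylate carrier, at 32.5 ± 3.10 FPKM with Alox5KO medium and 62.2 ± 10.6 with WT medium (SD, n = 3 each), a log2 fold change of -0.90 (limma, adjusted p = 0.0017). In the list of pentose phosphate and glycogen genes 5 of 16 tested fell and 2 rose, with a median of -0.23. Beside both lists, 10.6% of all tested genes fell and 10% rose. Among those that fell were the glycogen branching enzyme Gbe1, the glycogen synthase Gys1 and the phosphoglucomutase Pgm1, which fell by 1.09, 0.52 and 0.68 on the log2 scale. The other genes that fell, named after their values were seen, were the glycogen phosphorylases Pygb and Pygl. Of the 2 that rose, Gyg1, also named after its values were seen, rose by 0.36 (limma, adjusted p = 0.024).

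A wider list of hypoxia response genes moved mostly in the direction of the members. This list was chosen with earlier results of these data known, so it is not separate evidence. Of 32 tested, 15 fell and 2 rose, with a median log2 fold change of -0.38, beside 10.6% and 10% of all tested genes. Cited2, a HIF-induced inhibitor of HIF, had 67.7 ± 3.21 FPKM with Alox5KO medium and 131 ± 7.25 with WT medium (SD, n = 3 each) and fell by 0.94 (limma, adjusted p = 0.00015). Angptl4, a secreted lipase inhibitor, fell by 0.85, and Ddit4, an inhibitor of mTOR signalling, fell by 0.67. Bhlhe41, a transcriptional repressor, rose by 1.18, with 2.73 ± 0.479 FPKM with Alox5KO medium and 0.640 ± 0.150 with WT medium (SD, n = 3 each). The angiogenic factor Vegfa, named after its values were seen, had 47.5 ± 6.02 FPKM with Alox5KO medium and 67.7 ± 5.83 with WT medium (SD, n = 3 each) and fell by 0.51 (limma, adjusted p = 0.015). Hmox1, also named after its values were seen, was the other gene that rose, by 0.43 (limma, adjusted p = 0.026).

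Partners and regulators of HIF alpha outside the members and the wider hypoxia list gave a single call. Egln1, Egln3 and Cited2, which also act on HIF and fell, are not in this list. Of 11 tested genes of the oxygen sensing machinery 1 rose and the other 10 did not pass, with a median log2 fold change of -0.02. Over all tested genes 10% rose and 10.6% fell, so a single call in a list of this size is near the share of all genes. The gene that rose was Arnt2, a partner of HIF alpha known mainly from neurons, at 6.00 ± 0.240 FPKM with Alox5KO medium and 3.18 ± 1.29 with WT medium (SD, n = 3 each; limma, adjusted p = 0.023). In a list of 6 tested glucose-sensing factors and their targets the single call was Arrdc4, an arrestin that restrains glucose uptake, which fell by 1.53 (limma, adjusted p = 3e-05). Arrdc4 had 4.27 ± 0.473 FPKM with Alox5KO medium and 14.2 ± 1.02 with WT medium (SD, n = 3 each).

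**Figure D4:**
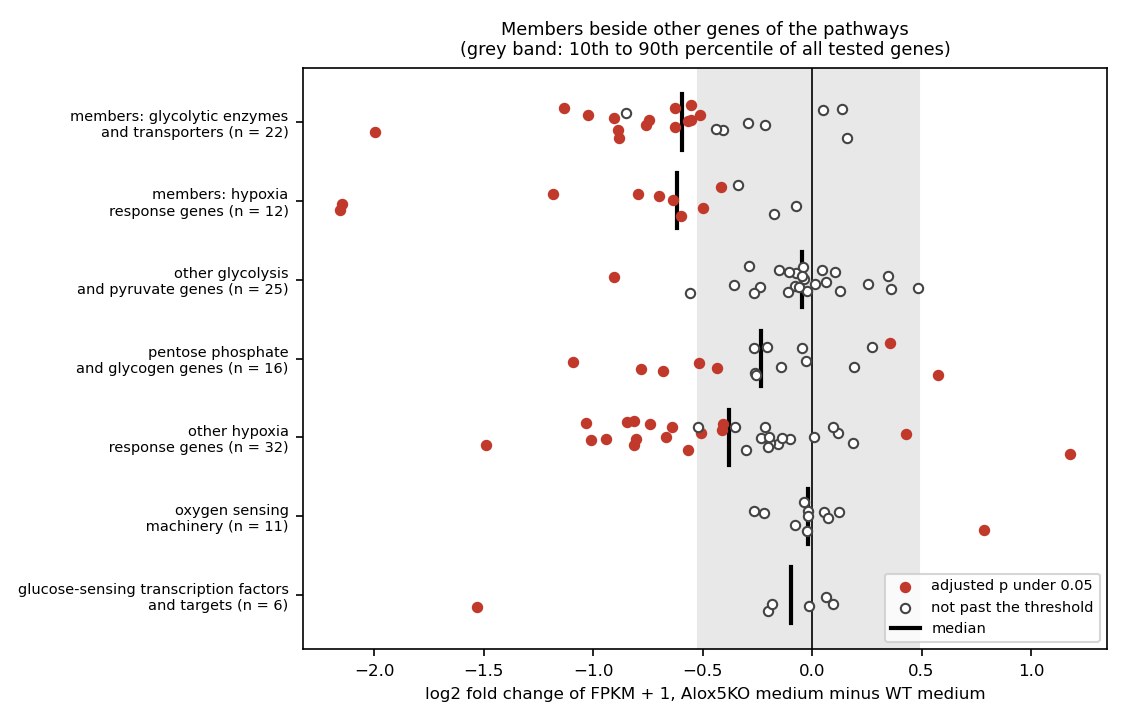
Log2 fold change, Alox5KO medium minus WT medium, of each tested gene in the 2 groups of members and in 5 lists of other pathway genes, filled red where the adjusted p is under 0.05, with the median of each list as a black bar. The medians of the members, -0.60 and -0.62, lie left of the grey band of the 10th to 90th percentile of all tested genes, and those of the 5 other lists lie inside it.

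Gene copies and the samples themselves limit some of these values. Of the 35 members, 12 share a Swiss-Prot entry with other rows of the table, 22 of them for Gapdh and 10 for Eno1, and reads of near-identical copies may have been split between rows. With the copies added in, 22 members fell, 21 of them among the 23, with Pfkfb4 and Tpi1 lost and Eno2 gained. Some rows divided the samples in a way that crossed the groups. RGD1563601, a copy of Tpi1, had 0.971, 40.3 and 4.69 FPKM with Alox5KO medium and 66.1, 69.0 and 3.34 with WT medium, and the class I histocompatibility gene RT1-CE10 had 0.519, 7.29 and 1.15 with Alox5KO medium and 13.4, 10.7 and 0.934 with WT medium. Both were chosen after their values were seen. In both, Alox5KO-medium replicate 2 lay above the rest of its own group and WT-medium replicate 3, towards WT-medium replicates 1 and 2. With a term in the model for this division, taken from the sign of the second principal component, 22 members fell, all among the 23, and Ero1a was lost.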

How the data were processed

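Per the labels' protocols, TRIzol was used for RNA and NEBNext Ultra for the libraries. The submitters' processing notes name, with no role or order, HISAT2 2.0.5 and featureCounts 1.5.0-p3, as well as fastp, CASAVA 1.8, the build mm10 and DESeq2 1.20.0. The labels give mouse as the organism, but 32883 of 33682 rows carry rat Ensembl identifiers and 0 carry mouse ones. The rat build and the use of strand in counting are not given in the sources used here, and coordinates are those of the table. The authors deposited FPKM values, with gene lengths, per the file headers. FPKM times length gave whole reads for 100% of values above 0, within 0.05 reads. In a 1-kilobase gene, 3 reads, the most that a count of 0 allows, correspond to 0.190 to 0.226 FPKM by library (counting error alone).

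Values were analysed as log2(FPKM + 1), which understates the change of rare genes. Genes averaging 1 FPKM or more over the 6 samples, 12341 in all, were tested in R 4.3.3 by limma 3.58.1 (trend, robust prior, no block, two-sided, Benjamini-Hochberg adjustment over all tested genes), and the fit was tested on simulated data. Fold changes are Alox5KO medium minus WT medium. Isozyme shares were compared with exact permutation tests in SciPy 1.17.1. Every member is named. From each other list up to 4 called genes with the smallest p are named. An item that this rule would name is not reported here. The members and lists were chosen with earlier results of these data known. Copies are rows with the same Swiss-Prot entry in the table's descriptions.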

Additional observations from a re-analysis of the deposited data

How the results depend on the processing

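Of the 23 members that fell, 16 did so in all 18 alternatives, and 7 lost the call in at least 1 of them. Other pseudocounts, other filters, quantile, median-of-ratios and TPM scaling, a prior that was not robust, limma-voom on recovered reads and each sample left out were planned. Adding copies and a term for the second component were chosen after seeing the data. With 1 sample left out, 17 to 22 members fell, and over all genes 862 to 1325 fell and 791 to 1226 rose, the lowest counts being those without WT-medium replicate 1. No alternative called a member higher, and none moved the median log2 fold change of all genes by over 0.1. Directions that turned were those of members that did not pass. Leaving out 1 sample, the log2 fold change ran from -0.0074 to 0.13 for Pfkm, from -0.15 to 0.013 for Kdm3a and from -1.57 to 0.33 for Slc2a3, and Pfkm had -0.0058 with the term for the second component. The difference in share ran from -0.032 to 0.040 percentage points for Eno2, which had -0.036 with copies added, and from -4.42 to 2.35 for Slc2a3.

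With a replicate block 23 members fell, the same 23. Deviations of same-numbered samples from their group means correlated at -0.096, 0.10 and 0.17 for replicates 1, 2 and 3. Replicate 1 of the Alox5KO-medium group correlated best with replicate 2 of the other group, at 0.078. Its replicates 2 and 3 correlated best with their own number, replicate 2 only narrowly (0.105, against 0.101 with replicate 1). These values do not settle whether the numbers pair the samples, and the main fit had no block. The low read numbers of Slc2a3, Pdk4, Ankrd37 and Pfkfb4 limit what can be said of them.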
